A study of Homo sapiens with 10 samples.

Results

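The 9 genes described here are 7 transcription factors of the Müllerian or ovarian lineage and its hormone axis, PAX8, SOX17, WT1, EMX2, MECOM, MEIS1 and the estrogen receptor ESR1, together with the progesterone receptor PGR and the chromatin remodelling subunit ARID1A. They were chosen by name: every annotated transcript that carries one of these symbols was taken, which gave 48 of 99493 transcripts and 9 of 57110 genes, and none of the 9 is joined with another gene in the annotation. The libraries are bulk nanopore cDNA libraries of total RNA from 7 untreated ovarian cancer cell lines, each carrying no named allele or agent in the labels. COV362, COV504, OVKATE, OVMANA, OVTOKO and SK-OV-3 were each sequenced once on a PromethION, and IGROV-1 gave 2 libraries on a PromethION and 2 on a MinION, a smaller instrument of the same kind. Nothing in the labels says that the IGROV-1 libraries came from separate cultures, so p-values measure the spread between these 4 libraries, which may be technical. A line with 1 library stands for that library, and fewer cells that transcribe a gene cannot be told apart from less RNA per cell.

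The oviduct, uterus and upper vagina arise from the Müllerian ducts, and PAX8, EMX2 and partners such as the TALE homeodomain protein MEIS1 act in the epithelium and mesenchyme of that tract. WT1 is a zinc finger protein of the gonad, kidney and mesothelium, and pathologists read PAX8, WT1, ESR1 and PGR in ovarian tumours to tell their types apart. Estrogen receptor, once bound by its hormone, activates PGR among other genes. ARID1A is a subunit of the SWI/SNF (BAF) complex that moves nucleosomes, and the MECOM locus encodes the EVI1 zinc finger protein.

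Several members make more than 1 protein by splicing, and the sequences at those choices are given first because the transcript shares below rest on them. They were read from the GENCODE 29 transcripts on GRCh38, where all 48 member transcripts were found, 47 of them at the position that the deposited annotation gives; the exception was ENST00000324856 of ARID1A. In WT1 (minus strand, chr11:32391972-32391980) a choice of splice donor adds 9 bases, in capitals, that put the residues KTS between the last zinc fingers.
WT1 +KTS: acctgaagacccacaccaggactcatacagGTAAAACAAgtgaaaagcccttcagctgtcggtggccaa
WT1 -KTS: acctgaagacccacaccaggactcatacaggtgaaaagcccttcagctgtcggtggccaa
In PAX8 (minus strand) the 121-base exon at chr2:113236601-113236721 and the 189-base exon at chr2:113235394-113235582 follow each other in the coding sequence behind the paired domain. Capitals in the second line mark its first 79 bases, which ENST00000348715 leaves out.
PAX8 121-base exon: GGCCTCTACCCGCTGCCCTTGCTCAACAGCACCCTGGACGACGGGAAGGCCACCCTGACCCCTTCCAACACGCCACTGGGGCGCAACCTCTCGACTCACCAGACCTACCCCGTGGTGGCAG
PAX8 189-base exon: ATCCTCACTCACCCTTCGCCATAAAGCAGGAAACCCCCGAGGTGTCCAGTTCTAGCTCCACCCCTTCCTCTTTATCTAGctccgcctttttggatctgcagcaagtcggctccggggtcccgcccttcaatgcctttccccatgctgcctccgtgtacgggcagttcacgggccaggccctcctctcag
In MECOM (minus strand, chr3:169107926-169107952) a 27-base exon, in capitals with its neighbours in lower case, adds 9 residues.
MECOM 27-base exon: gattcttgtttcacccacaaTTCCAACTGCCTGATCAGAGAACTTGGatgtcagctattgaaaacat

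Library totals ran from 1729782 to 3666224 estimated counts with a median of 2287873, and levels are given as CPM, counts per 1000000 counts of the library, a scale that is not divided by transcript length, so levels are compared between lines and never between genes. A count of 0 allows up to 3 counts, which is 0.82 to 1.73 CPM in a single library and 0.64 CPM over both IGROV-1 PromethION libraries; all such limits and intervals cover counting error only. Both IGROV-1 PromethION libraries held 9.13% and 10.9% mitochondrial ribosomal RNA against 1.01% to 3.31% elsewhere. With those genes left out, no call or direction of a member changed against IGROV-1 or between instruments, and of the neighbouring pairs of lines tested below 1 call was lost (PAX8, OVTOKO above OVKATE), while the IGROV-1 PromethION mean of ARID1A moved from 99.8 to 111 CPM. The 6 epithelial markers examined summed to between 404 CPM (IGROV-1, MinION library 1) and 9650 CPM (COV504). KRT7 and CDH1 were at 0 and EPCAM at 0 to 1.5 CPM in all 4 IGROV-1 libraries, and KRT19 was at 0.58 CPM in OVTOKO, so the epithelial label is not borne out by every marker. The 5 blood cell markers summed to at most 16.3 CPM, of which LYZ in OVKATE gave 12.4 CPM, and CD3E was at 0 in all 10 libraries. The 4 fibroblast markers summed to 0.58 to 82.3 CPM except in SK-OV-3, where COL1A1 (219 CPM) and LUM (52.7 CPM) brought the sum to 272 CPM. The 3 germ cell markers summed to 57.6 to 221 CPM in OVMANA and the 4 IGROV-1 libraries, nearly all of it POU5F1, and to at most 4.05 CPM in the other lines, and DAZL was at 0 in all 10 libraries. The 3 mesothelial markers summed to 378 CPM in OVKATE, 252 in OVMANA, 85.4 in COV362 and 4.05 to 30.3 elsewhere. The endothelial and granulosa cell markers summed to at most 25.8 and 7.73 CPM; the part of such differences in the results was not tested.

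PAX8, SOX17, MECOM and ARID1A were read in all 10 libraries and differed between lines by degree. EMX2, MEIS1 and ESR1 were read in OVKATE, SK-OV-3, COV362 and COV504 and had 0 counts in OVMANA, OVTOKO and all 4 IGROV-1 libraries. In SK-OV-3, EMX2 had only 3 counts. WT1 was read in OVKATE, apart from 1 count in COV362. PGR had 0 counts in every library.

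**Figure D1:**
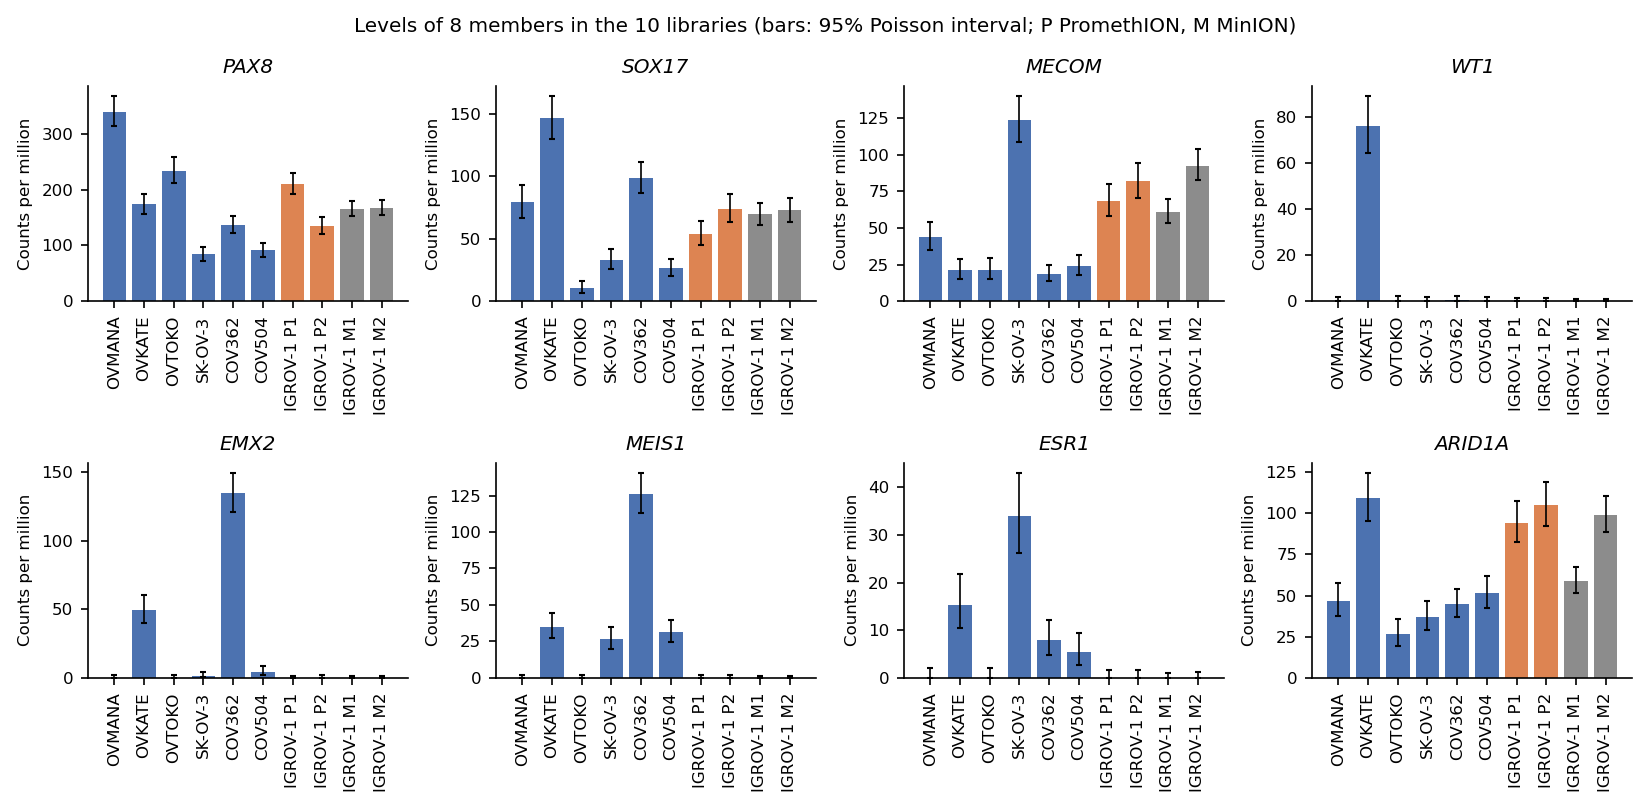
Levels in CPM (linear y axes from 0, a separate scale for each gene) of 8 of the 9 genes in the 10 libraries; error bars are exact 95% Poisson intervals, blue bars are single PromethION libraries, orange and grey bars the IGROV-1 PromethION (P) and MinION (M) libraries. PAX8, SOX17, MECOM and ARID1A are present throughout, EMX2, MEIS1 and ESR1 are at 0 in OVMANA, OVTOKO and IGROV-1, and WT1 stands at 76.2 CPM in OVKATE.

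Each line was set against the IGROV-1 PromethION pair with edgeR's quasi-likelihood test over 13030 genes, and a gene with a Benjamini-Hochberg adjusted p below 0.05 is said to have passed. These comparisons share the IGROV-1 libraries and so are not independent of each other. Of the 8 members that could be tested, 2 passed in OVMANA, where 35.4% of all genes passed: 1 was higher (18.9% of all genes) and 1 lower (16.5%). In OVKATE 6 passed (49.2% of all genes), 5 of them higher (26.8%) and 1 lower (22.4%). In OVTOKO 3 passed (34.1%), 0 higher (18.2%) and 3 lower (15.9%). In SK-OV-3 5 passed (41.9%), 2 higher (22.1%) and 3 lower (19.8%). In COV362 6 passed (42.5%), 4 higher (23.7%) and 2 lower (18.8%), and in COV504 7 passed (43.5%), 3 higher (24%) and 4 lower (19.6%). In OVMANA and OVTOKO, 4 of the 8 tested members had 0 counts on both sides and could not pass. WT1, EMX2, MEIS1 and ESR1 met edgeR's expression filter only through lines in which they were read. Their p-values against IGROV-1, at 0 counts, are therefore not separate support for a difference. The lines differed from IGROV-1 in 34.1% to 49.2% of all genes, so passing was common in these comparisons. DESeq2 passed 1, 5, 3, 4, 4 and 3 members in the same order of lines, and 1329 to 2117 genes in all where edgeR passed 4443 to 6405. The fall from 7 to 3 in COV504 took in PAX8, SOX17, ESR1 and ARID1A. For the order of the levels, each member apart from PGR was also tested between lines next to each other, and 9 of these 48 pairs passed. The pairs were picked by the same levels that were tested. Those of WT1, EMX2, MEIS1 and ESR1 with 0 counts in both lines could not pass. In the pairs without IGROV-1 that are quoted below, 31.3% (OVTOKO and COV504) to 40.4% (OVKATE and OVTOKO) of all genes passed. DESeq2 passed 1 of the 48, and without IGROV-1 PromethION replicate 1 or 2 edgeR passed 14 or 16.

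PAX8 (ENSG00000125618, chr2:113215997-113278950, GRCh38) encodes a paired-box factor used as a marker of Müllerian epithelium. Its level was 339.8 CPM in OVMANA, 234 in OVTOKO, 174 in OVKATE, 137 in COV362, 91.7 in COV504 and 84.1 in SK-OV-3. IGROV-1 gave 211 and 134 CPM on the PromethION (173 ± 53.8, SD, n = 2) and 165 and 167 on the MinION (166 ± 1.73, n = 2). OVMANA was the highest of the 10 libraries and SK-OV-3 and COV504 the lowest, and none of these 3 overlapped the IGROV-1 libraries. Against IGROV-1, PAX8 was higher in OVMANA by 1.04 ± 0.23 on the log2 scale (SE; adjusted p = 0.0092). It was lower in SK-OV-3, with a log2 change of -1.26 ± 0.27 (adjusted p = 0.0060), and in COV504, with -0.99 ± 0.26 (adjusted p = 0.016). OVTOKO (log2 change 0.52 ± 0.24), OVKATE (-0.29 ± 0.25) and COV362 (-0.29 ± 0.25) did not pass.

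The pair of IGROV-1 PromethION libraries sets how far PAX8 can be read. Without its replicate 1, the one at 211 CPM, the log2 change was 0.06 in both OVKATE and COV362, and OVTOKO passed at 0.87 (adjusted p = 0.0025). Without replicate 2, OVKATE (-0.58, adjusted p = 0.042) and COV362 (-0.58, adjusted p = 0.049) passed. Leaving out either MinION library lowers the number of libraries behind the spread and refits the changes. PAX8 then missed the threshold in OVMANA, SK-OV-3 and COV504. Without MinION replicate 1 the log2 changes were 1.04 in OVMANA, -1.26 in SK-OV-3 and -0.99 in COV504. Without MinION replicate 2 they were 1.08, -1.20 and -0.95. In the order of the 7 lines, 1 of the 6 neighbouring pairs differed, OVTOKO above OVKATE by 0.81 ± 0.28 (adjusted p = 0.0498; 40.4% of all genes passed). That call held in 2 of 10 alternatives, with adjusted p-values from 0.0037 to 0.29. The distance from OVMANA to SK-OV-3 was 2.30 ± 0.30 (adjusted p = 0.00076; 34.3% of all genes passed).

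Behind these levels stood mostly 1 transcript, ENST00000429538 (450 residues), which took 72.6% to 91.6% of PAX8 counts. Together with ENST00000263334, which encodes the same number of residues from a different exon set, this full-length frame held 93.0% in OVMANA, 85.6% in OVKATE, 87.8% in OVTOKO, 92.7% in SK-OV-3, 93.1% in COV362 and 85.0% in COV504. The IGROV-1 pairs gave 85.3% ± 0.15 (PromethION) and 87.5% ± 0.72 (MinION; SD, n = 2 each). Every library thus read at least 85.0% of PAX8 as the long frame.

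The transcript that drops the capital bases of the 189-base exon shown above, ENST00000348715 (398 residues), ran from 4.75% in COV362 (95% Wilson interval 3.06 to 7.66, 349 PAX8 counts) to 13.4% in OVKATE (10.2 to 17.4, 351 counts). OVTOKO stood at 10.8% and IGROV-1 at 9.66% ± 0.79 on the PromethION and 6.20% ± 1.20 on the MinION. The intervals of OVKATE and COV362 do not meet, but the spread between IGROV-1 instruments covers part of that distance. ENST00000263335 (321 residues) lacks both exons printed above and took 0.57% to 4.13% in 9 libraries but 8.21% in COV504 (5.22 to 12.8, 206 counts). ENST00000397647 (287 residues), which lacks a further exon, stayed at or below 3.36%. Transcript usage of PAX8 did not pass in any line, with adjusted p-values between 0.67 (COV362) and 1. In MinION replicate 2 of IGROV-1, ENST00000263334 reached 14.4% (11.7 to 17.6) against 4.69% to 6.32% in the other IGROV-1 libraries.

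**Figure D2:**
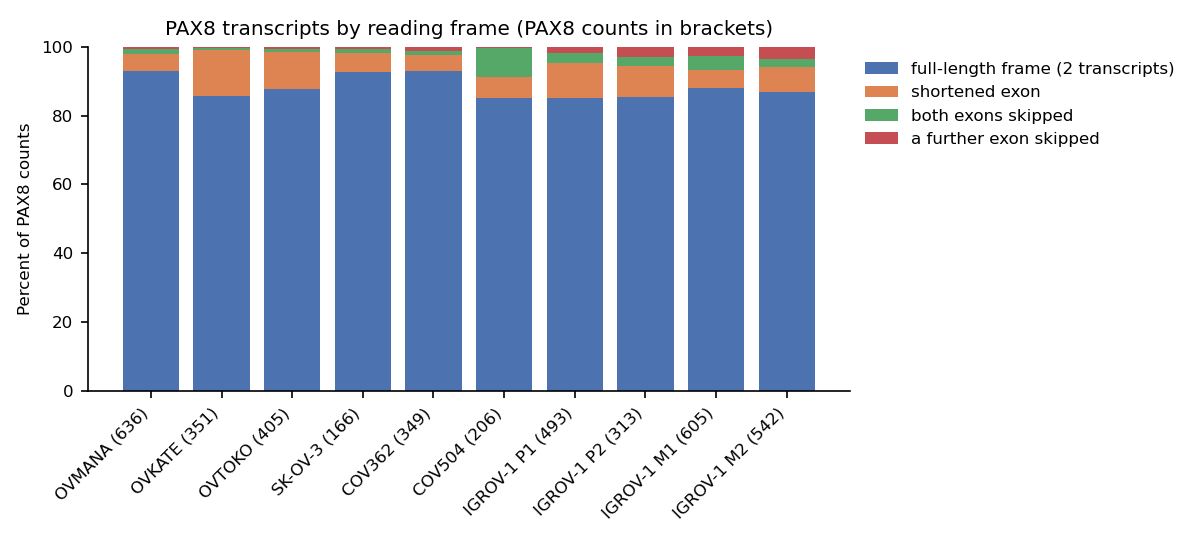
Percent of PAX8 counts (y axis, 0 to 100) by reading frame in each library, with the PAX8 counts in brackets; the colours stand for the full-length frame, the shortened exon, both exons skipped and a further exon skipped. The full-length frame holds 85.0% or more in each library, the shortened exon is largest in OVKATE (13.4%) and the form that skips both exons in COV504 (8.21%).

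SOX17 (ENSG00000164736, chr8:54457935-54460888), an HMG-box factor of endoderm and of Müllerian epithelium that has 1 annotated transcript here, followed another order. OVKATE had 146 CPM, COV362 98.3, OVMANA 79.1, SK-OV-3 32.9, COV504 26.3 and OVTOKO 10.4 (18 counts). IGROV-1 gave 53.8 and 73.9 CPM on the PromethION (63.9 ± 14.2) and 69.6 and 72.6 on the MinION (71.1 ± 2.16). OVKATE, COV362 and OVMANA thus lay above, and the other lines below, all 4 IGROV-1 libraries. The 95% Poisson interval of OVMANA (66.9 to 92.9 CPM) overlapped those of PromethION replicate 2 and both MinION libraries. SOX17 was lower than in IGROV-1 in OVTOKO (log2 change -2.53 ± 0.32, adjusted p = 0.00064), COV504 (-1.36 ± 0.26, adjusted p = 0.0033) and SK-OV-3 (-1.18 ± 0.25, adjusted p = 0.0061). It was higher in OVKATE (0.89 ± 0.21, adjusted p = 0.0072) and in COV362 (0.67 ± 0.21, adjusted p = 0.032). OVMANA (0.37 ± 0.22, adjusted p = 0.23) did not pass.

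The COV362 call of SOX17 held in 5 of 11 alternatives, among them the setting that repeats the reported fit. Without IGROV-1 PromethION replicate 1 the change was 0.45 and missed the threshold. Without MinION replicate 1 the adjusted p-values rose to 0.053 in OVKATE, 0.11 in COV362 and 0.055 in SK-OV-3, and without MinION replicate 2 to 0.088 in COV362. OVTOKO combined the second highest PAX8 level of the 7 lines with the lowest SOX17 level. Of the 6 neighbouring pairs, IGROV-1 above SK-OV-3 differed (adjusted p = 0.0061, held in 8 of 10 alternatives), and COV504 above OVTOKO by 1.18 ± 0.39 missed the threshold (adjusted p = 0.052; 31.3% of all genes passed).

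MECOM (ENSG00000085276, chr3:169083499-169663470) was highest in SK-OV-3 with 124 CPM, followed by OVMANA with 43.8, COV504 with 24.0, OVTOKO with 21.4, OVKATE with 21.3 and COV362 with 18.8. IGROV-1 gave 68.8 and 82.0 CPM on the PromethION (75.4 ± 9.38) and 61.1 and 92.7 on the MinION (76.9 ± 22.3), above all lines but SK-OV-3. It was lower than in IGROV-1 in OVKATE by a log2 change of -2.12 ± 0.30 (adjusted p = 0.00069) and in COV362 by -1.96 ± 0.30 (adjusted p = 0.0013). OVTOKO (-1.74 ± 0.31, adjusted p = 0.0036) and COV504 (-1.73 ± 0.29, adjusted p = 0.0020) were lower as well, and these 4 calls held in all 11 alternatives. SK-OV-3 (0.49 ± 0.24, adjusted p = 0.13) and OVMANA (-0.72 ± 0.27, adjusted p = 0.071) did not pass. SK-OV-3 passed without PromethION replicate 2 (0.62, adjusted p = 0.048) and OVMANA without PromethION replicate 1 (-0.85, adjusted p = 0.012). No neighbouring pair in the order passed, and the closest was OVMANA above COV504 (1.01 ± 0.35, adjusted p = 0.055; 33.6% of all genes passed). SK-OV-3 lay above COV362 by 2.44 ± 0.32 (adjusted p = 0.00098; 35.4%).

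Transcripts of MECOM that hold the 27-base exon made up 43.5% of MECOM counts in OVMANA, 16.4% in OVKATE, 34.7% in OVTOKO, 24.5% in SK-OV-3, 52.8% in COV362 and 36.5% in COV504. In IGROV-1 they made up 60.4% and 52.4% on the PromethION (56.4% ± 5.65) and 75.8% and 67.7% on the MinION (71.8% ± 5.71). OVKATE (8.12% to 30.0%, 43 counts) and SK-OV-3 (19.6% to 30.4%, 244 counts) had intervals below those of all 4 IGROV-1 libraries, and the MinION shares lay above the PromethION shares, although the intervals of PromethION replicate 1 (52.5% to 67.5%) and MinION replicate 2 (62.2% to 72.7%) overlap. The form without the exon was almost wholly ENST00000464456, which also has a first exon of its own, so the start and the exon cannot be told apart in these shares. That transcript took 83.6% in OVKATE and 74.0% in SK-OV-3 against 39.4% and 47.5% in the IGROV-1 PromethION libraries. ENST00000264674 and ENST00000628990, which hold the exon, took 6.19% to 35.9% and 10.2% to 36.7%. The far upstream start that joins MDS1 to EVI1 took at most 3.07% (COV504).

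**Figure D3:**
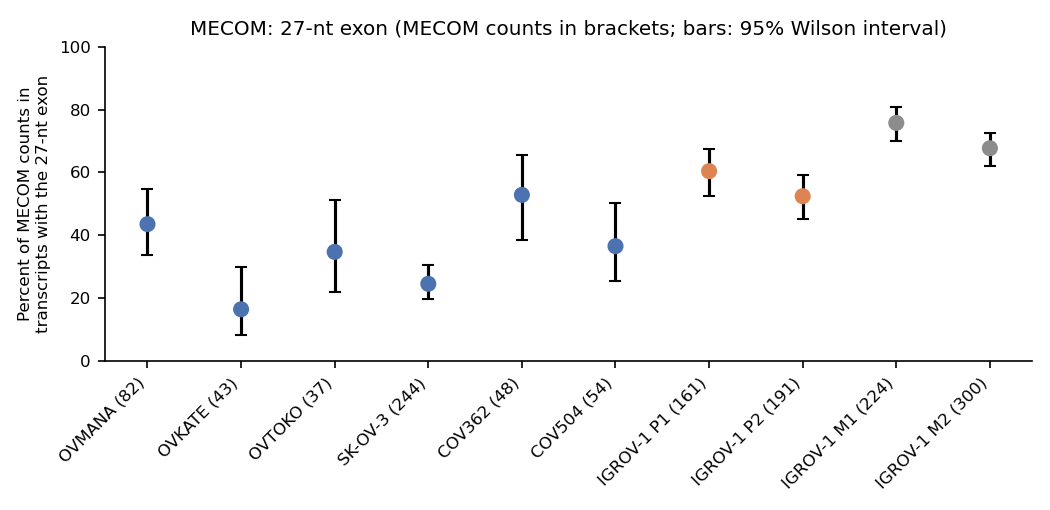
Percent of MECOM counts in transcripts that hold the 27-base exon (y axis, 0 to 100) in each library, with MECOM counts in brackets and 95% Wilson intervals; blue, orange and grey stand for single lines, IGROV-1 PromethION and IGROV-1 MinION. OVKATE (16.4%) and SK-OV-3 (24.5%) lie lowest and the IGROV-1 MinION libraries (75.8% and 67.7%) highest.

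The usage test, edgeR's diffSpliceDGE with a Simes p for each gene, covered 6 members against IGROV-1. It passed 0 of them in each of the 6 lines, where 1.31% (OVTOKO), 2.01% (SK-OV-3), 2.54% (COV504), 2.75% (COV362), 2.79% (OVMANA) and 4.76% (OVKATE) of 4730 genes passed. At an unadjusted p below 0.05 there was 1 member, MECOM in SK-OV-3 (adjusted p = 0.34; 0.22 to 0.60 over the alternatives); no other tool was run on usage. WT1, EMX2 and MEIS1 have no IGROV-1 counts, so for them the test compares nothing and their shares below are descriptions.

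WT1 (ENSG00000184937, chr11:32387775-32435630) was read at 76.2 CPM in OVKATE (154 counts, 95% Poisson interval 64.6 to 89.2 CPM). COV362 had 1 count and the other 8 libraries 0. WT1 thus entered the edgeR test only through its counts in OVKATE, and its p-values carry that limit. The measured level in OVKATE was 119 times the limit for IGROV-1 (edgeR adjusted p = 7.4e-05), a ratio that leaves out the counting error of OVKATE. OVKATE exceeded COV362 with an adjusted p of 0.00061 (0.067 with DESeq2), and 33.2% of all genes passed between those lines. Among the WT1 counts of OVKATE, 51.9% (44.1 to 59.7) came from transcripts with the KTS bases shown above and 48.1% from those without. ENST00000332351 (517 residues, 50.0%) and ENST00000379079 (302 residues, 46.0%) carried nearly all of them. The former has an upstream start and the KTS bases and the latter a downstream start without them, so those features also cannot be told apart. A 51-base exon between them and the zinc fingers was held by 96.7% (92.6 to 98.6). The mesothelial markers MSLN and UPK3B were also highest in OVKATE (309.6 and 68.7 CPM), where CALB2 was at 0. OVMANA, with 0 WT1 counts, had 207 CPM of MSLN and 44.4 of UPK3B; their part in the WT1 level was not tested.

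EMX2 (ENSG00000170370, chr10:117542444-117549546) encodes a homeodomain factor needed for the reproductive tract and kidney. It stood at 135 CPM in COV362 (344 counts), 49.5 in OVKATE (100 counts), 4.45 in COV504 (10 counts) and 1.52 in SK-OV-3 (3 counts), with 0 in OVMANA, OVTOKO and the 4 IGROV-1 libraries. The measured levels in COV362, OVKATE and COV504 were 209.8, 77.0 and 6.9 times the limit for IGROV-1. These ratios leave out the counting error of the line, which in COV504 spans 2.13 to 8.18 CPM (95% Poisson interval). The edgeR adjusted p-values were 2.3e-05, 8.2e-05 and 0.0069. With 0 counts in IGROV-1 they are not separate support for a difference. SK-OV-3, with 3 counts, did not pass (adjusted p = 0.058). COV362 exceeded OVKATE by 1.79 ± 0.25 on the log2 scale (adjusted p = 0.0028) and OVKATE exceeded COV504 by 3.24 ± 0.40 (adjusted p = 0.0018; 34.5% of all genes passed), and DESeq2 was the 1 of 10 alternatives in which these calls were lost (adjusted p = 0.51 and 0.090). The 3-exon transcript ENST00000553456 took 95.5% of EMX2 counts in OVKATE and 96.3% in COV362.

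MEIS1 (ENSG00000143995, chr2:66435133-66573869) was read at 126 CPM in COV362 (322 counts), 35.1 in OVKATE (71), 31.1 in COV504 (70) and 26.3 in SK-OV-3 (52), and at 0 elsewhere. The measured levels in the 4 lines were 196, 54.7, 48.5 and 41.0 times the limit for IGROV-1, without the counting error of each line. The edgeR adjusted p-values, 2.4e-05 to 0.00029, are not separate support, because MEIS1 had 0 counts in IGROV-1. COV362 exceeded OVKATE by 2.19 ± 0.26 (adjusted p = 0.0015; 0.27 with DESeq2), and neither OVKATE and COV504 nor COV504 and SK-OV-3 differed beyond their error. ENST00000272369 (390 residues) took 62.1% to 81.6% of MEIS1 counts. ENST00000398506 (463 residues), which has another start and skips a 96-base exon, took 26.4% in SK-OV-3 (16.8 to 40.3) and 8.54%, 10.9% and 11.3% in OVKATE, COV362 and COV504. Of these only the COV362 interval, 7.92 to 14.7, ends below that of SK-OV-3. ENST00000495021 took 17.8% in COV362 (13.9 to 22.2), 9.48% in OVKATE, 8.76% in SK-OV-3 and 2.02% in COV504 (0.25 to 7.66).

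ESR1 (ENSG00000091831, chr6:151690496-152129619) was read in the same 4 lines, in a different order: 33.9 CPM in SK-OV-3 (67 counts), 15.3 in OVKATE (31), 7.84 in COV362 (20) and 5.34 in COV504 (12). These measured levels were 52.8, 23.9, 12.2 and 8.31 times the limit for IGROV-1. The ratios leave out the counting error of the line, which in COV504 spans 2.76 to 9.33 CPM (95% Poisson interval). The edgeR adjusted p-values were 0.00035, 0.0011, 0.0033 and 0.0075, and COV504 reached 0.073 with DESeq2. As ESR1 had 0 counts in IGROV-1, they are not separate support for a difference. SK-OV-3 exceeded COV362 by 1.84 ± 0.43 (adjusted p = 0.019), whereas its distance from OVKATE, 1.22 ± 0.40, missed the threshold (adjusted p = 0.055; 38.5% of all genes passed). COV504 passed above OVMANA, which had 0 counts (adjusted p = 0.033), a call held in 5 of 10 alternatives. ENST00000206249 took 90.3% of ESR1 counts in OVKATE (75.1 to 96.7) and 87.2% in SK-OV-3 (76.4 to 92.8). In COV362 its share was 33.2% (18.1 to 56.7), nearly level with ENST00000443427 (33.7%) and ENST00000440973 (33.1%), on 20 counts. All 3 encode 595 residues and differ in their first exons. Their estimated counts were 6.63, 6.74 and 6.63, a nearly even split. Whether the reads reached the first exons was not tested, so this split is not read as use of 3 starts.

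PGR (ENSG00000082175, chr11:101029624-101130524), the classical estrogen receptor target, had 0 counts over all 5 of its transcripts in all 10 libraries, and was not tested. It was not detectable at this depth in the 4 lines with ESR1 counts either, where the limit was 1.18 to 1.52 CPM.

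The pattern of EMX2, MEIS1 and ESR1, 0 counts in OVMANA, OVTOKO and the 4 IGROV-1 libraries with at least 3 counts in each of the other 4 lines, was noticed in the values and then counted. It was met by 44 of the 15906 genes with at least 3 counts in a library (0.277%), 3 of them members. EMX2 met it only just, with 3 counts in SK-OV-3 (1.52 CPM). That is also the limit allowed there for a count of 0. The germ cell marker POU5F1 was at 221 CPM in OVMANA and 57.6 to 140 in IGROV-1, at 4.05 in OVTOKO and at 0 to 2.53 in the lines with the 3 genes; its part in this pattern was not tested. CDH6, an adhesion molecule of kidney and Müllerian epithelium, had it with 139 (SK-OV-3) to 2136 (OVKATE) counts, and CDCA7L, BEX4 and NFIA had it with 47 counts or more in each of the 4 lines. The 7 lines share a preparation and differ in depth. Over them, the log2(CPM + 1) levels of MEIS1 and ESR1 had a Pearson r of 0.87, EMX2 and MEIS1 0.86, PAX8 and ESR1 -0.76, and PAX8 and MEIS1 -0.71 (n = 7 lines, IGROV-1 by its PromethION mean). SOX17 and ARID1A had r = 0.72, and PAX8 with SOX17 0.14.

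RNAs from the opposite strand of these loci were counted beside them; no source used here says whether counting used strand, so reads of overlapping partners may not be fully separated. EMX2OS had 83 counts in COV362 (32.5 CPM) and 46 in OVKATE (22.8 CPM) and 0 in the other 8 libraries, including COV504, where EMX2 itself had 10. WT1-AS had 14 counts in OVKATE (6.92 CPM) and 1 in COV362, the same 2 libraries as WT1. Both passed against IGROV-1 in OVKATE, and EMX2OS also in COV362 (adjusted p = 0.00030). EMX2OS and WT1-AS had 0 counts in IGROV-1, so these calls are not separate support for a difference. PAX8-AS1 ran from 1 count (COV362) to 33 (IGROV-1, PromethION replicate 2). It was lower in COV362 (adjusted p = 0.017), where PAX8 did not pass, and in SK-OV-3 (2 counts, adjusted p = 0.028), where PAX8 was lower too. MEIS1-AS2 had 1 to 6 counts in each of the 4 lines with MEIS1 and 0 elsewhere.

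ARID1A (ENSG00000117713, chr1:26693236-26782104) was read at 109 CPM in OVKATE, 51.6 in COV504, 46.5 in OVMANA, 45.1 in COV362, 37.0 in SK-OV-3 and 26.6 in OVTOKO (46 counts). IGROV-1 gave 94.4 and 105 CPM on the PromethION (99.8 ± 7.66) and 58.9 and 99.2 on the MinION (79.0 ± 28.5). OVKATE was above and the other 5 lines below all 4 IGROV-1 libraries. The 95% Poisson intervals of COV504, OVMANA and COV362 overlapped that of MinION replicate 1 (51.3 to 67.3 CPM). That of OVKATE overlapped those of both PromethION libraries and MinION replicate 2. ARID1A was lower than in IGROV-1 in OVTOKO (log2 change -1.83 ± 0.33, adjusted p = 0.0035), SK-OV-3 (-1.66 ± 0.31, adjusted p = 0.0030), COV362 (-1.10 ± 0.29, adjusted p = 0.015), OVMANA (-1.04 ± 0.30, adjusted p = 0.025) and COV504 (-1.03 ± 0.28, adjusted p = 0.019). With DESeq2 the last 3 had adjusted p-values of 0.21, 0.29 and 0.28. In OVKATE the fitted change was -0.17 ± 0.26, of the opposite sign to the CPM ratio (log2 0.13), because TMM normalization shifts that library by 0.30; the change did not pass either way.

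The long transcript ENST00000324856 (2285 residues) took 83.1% (OVTOKO) to 97.6% (SK-OV-3) of ARID1A counts. ENST00000430799 (1901 residues), which starts further upstream, took 2.15% (SK-OV-3) to 11.1% (OVTOKO, 4.73 to 23.0 on 46 counts). In IGROV-1 it took 9.11% ± 0.041 on the PromethION and 5.48% ± 0.51 on the MinION. The intervals of all libraries overlap for this transcript.

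**Figure D4:**
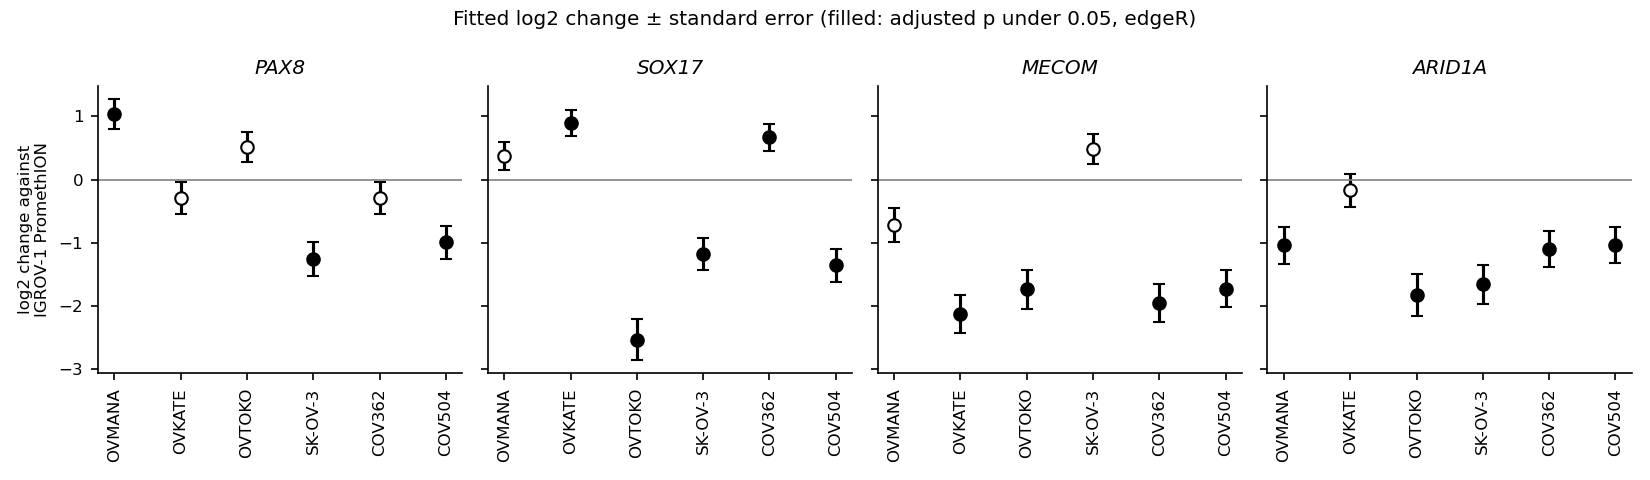
Fitted log2 change of each line against the IGROV-1 PromethION pair (y axis) with its standard error for PAX8, SOX17, MECOM and ARID1A; filled points passed at an adjusted p below 0.05 (edgeR) and open points did not. MECOM and ARID1A have passing points below 0 only (4 and 5 of 6 lines), while PAX8 and SOX17 have passing points on both sides.

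Between the instruments, 0 of the 4 members tested in IGROV-1 passed (0.827% of 10041 genes passed). edgeR gave 0 members at an unadjusted p below 0.05 and DESeq2 also passed 0. These fits did not pair libraries by replicate number. With a replicate block ARID1A passed (log2 change -0.40), as given in the closing section, but the labels do not say that numbers pair the samples. The log2 changes, MinION against PromethION, were -0.10 ± 0.19 for PAX8, 0.11 ± 0.17 for SOX17, -0.02 ± 0.19 for MECOM and -0.39 ± 0.21 for ARID1A. Transcript usage passed in 0 of 3 members tested (5.91% of 2979 genes), with 0 at an unadjusted p below 0.05. SOX17, MECOM and ARID1A, 3 of these 4 members, were higher in replicate 2 than in replicate 1 on both instruments. Their 95% Poisson intervals overlapped between replicates for SOX17 on both instruments and for MECOM and ARID1A on the PromethION. The share of all genes that were higher in replicate 2 on both instruments was not counted. The keratin KRT18 moved the same way, with 263 and 244 CPM in replicate 1 and 1041 and 1080 in replicate 2 (PromethION, then MinION); its part in the members' values was not tested.

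Among the other genes of Müllerian duct development, 22 of 23 listed were in the files and 16 were tested. Between 3 and 5 passed as higher and 4 or 5 as lower than IGROV-1 in each line, with list medians from -0.59 (OVKATE) to 0.18 (COV504) beside medians of all genes between -0.0094 and 0.035. Of all genes, 18.2% (OVTOKO) to 26.8% (OVKATE) passed as higher and 15.9% (OVTOKO) to 22.4% (OVKATE) as lower. The counts of this list and of those that follow are to be read beside these shares. MEIS2, the paralogue of MEIS1, was highest in IGROV-1 (36.3 and 31.4 CPM, PromethION) and at 0 in OVKATE and 0.58 to 10.2 CPM in the others. The signalling ligand WNT5A was at 0 in OVTOKO against 18.4 and 43.8 CPM in IGROV-1 (adjusted p = 0.013).

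Of the steroid receptors and estrogen or progesterone responsive genes, 13 of 18 were tested; 2 to 4 passed as higher and 3 to 5 as lower in each line, with list medians of -0.78 (OVMANA) to 0.06 (COV504). IGFBP4, a binding protein for insulin-like growth factors, was at 0 in the 4 IGROV-1 libraries and in OVTOKO and reached 379 CPM in COV504, 235 in OVMANA and 144 in COV362. XBP1, a factor of the unfolded protein response, was at 0 in COV504 and at 69.2 CPM or more in the other 9 libraries. GREB1, named for its induction by estrogen, was read at 12.4 to 13.9 CPM in the 4 IGROV-1 libraries, which have no ESR1 counts, and at 2.31 CPM in OVTOKO and 0 in OVMANA, which have none either. In the lines with ESR1 counts it was at 10.1 CPM in SK-OV-3, 6.92 in OVKATE, 0.78 in COV362 and 0 in COV504. All 15 coregulators were tested, with 1 to 4 higher and 2 to 6 lower and list medians of -0.68 (OVKATE) to -0.29 (COV504). The pioneer factor FOXA1 was at 24.5 CPM in COV504, 5.15 to 6.80 in IGROV-1 and 0 in OVMANA (adjusted p = 0.0088). GATA3 was at 5.94 CPM in OVKATE (adjusted p = 0.012) and 0 in IGROV-1, so its p-value carries the limit given for WT1. TRIM24 was at 3.56 CPM in COV504 against 35.9 and 38.2 in IGROV-1 PromethION (adjusted p = 0.00014).

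Of the partners of ARID1A in the SWI/SNF complexes, 23 of 25 were tested, with list medians of -0.39 (OVMANA) to -0.03 (COV504). In each line 1 to 6 passed as higher (18.2% to 26.8% of all genes) and 7 to 9 as lower than IGROV-1 (15.9% to 22.4%). SMARCA2, one of the alternative ATPases, was at 0, 0, 0.55 and 0 CPM in the IGROV-1 libraries and at 5.20 (OVTOKO) to 30.7 CPM (OVKATE) in the other lines. SMARCD3 was at 0 in OVMANA against 16.7 and 17.6 CPM in IGROV-1 PromethION (adjusted p = 0.00039). The core subunit SMARCC1 was at 2.03 CPM in SK-OV-3 and at 27.2 CPM or more in each other library, a log2 change from IGROV-1 of -5.58 ± 0.36 (adjusted p = 1.7e-05).

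The genes with the pattern most like each member over the 7 lines were named by the highest Pearson r of log2(CPM + 1), as a description. For PAX8 these were NUP35 (r = 0.98), DLL3 (0.98) and SUPT7L (0.97), for SOX17 ZNF551 (0.98), CYB5R2 (0.97) and NACC1 (0.97), and for MECOM DNAJC7 (0.97), GSS (0.97) and SLC22A3 (0.96). WT1 was most like KLHDC8A, which had 73.2 CPM in OVKATE, 0.39 in COV362 and 0 elsewhere, then NWD1 and LINC01018 with the same shape. EMX2 was most like PDE6B (0.99), CAND2 (0.99) and JPH1 (0.99), and MEIS1 most like PCDHB5 (1.00), AGBL5 (0.99) and CDCA7L (0.99). For ESR1 they were CTSF (0.99), NXT2 (0.99) and FOXS1 (0.98), and for ARID1A ANK3 (0.98), CEL (0.97) and THAP5 (0.97).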

How the data were processed

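RNA of 7 ovarian cancer cell lines was purified with a column kit and made into nanopore ligation libraries with end repair extended to 30 min, per the labels' protocols. Reads were aligned with minimap2 2.24-r1122 to GRCh38, per the submitters' processing notes; no source used here gives the settings behind the transcript counts. The deposited files hold estimated counts per transcript and a column named TPM, which equals the count per 1000000 counts of the library (largest difference 5.6e-11) and so is not divided by length. Because the deposited TPM carry no length term, they were read as CPM.

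Counts were summed per gene, rounded and fitted in R 4.3.3 with edgeR 4.0.16 (TMM, filterByExpr, quasi-likelihood, 2 residual degrees of freedom, Benjamini-Hochberg over all genes tested); the 10 libraries entered 1 fit with 8 groups, and the instruments were compared in the 4 IGROV-1 libraries alone. DESeq2 1.42.0, RLE factors, other filters, other transcript sets and leaving out each IGROV-1 library were alternatives. Taking only transcripts named for a member alone repeats the reported fit, because no member is joined with another gene. That setting is counted among the 11 alternatives of calls against IGROV-1 and could not change them. Library totals without normalization factors, and every alternative for neighbouring lines, were added after the data were seen. Usage was tested with diffSpliceDGE. Scripts were tested on simulated data. Shares need at least 20 counts of the gene in a library; the text names transcripts that reach 10% in one and, chosen after their values were seen, 2 PAX8 transcripts below that. It also names, for each member that reaches 10 CPM in a line, the 3 most similar genes among those with 10 or more counts in a library, and the 3 largest passing changes of each context list, except that 1 such gene is not reported here. The antisense list had 6 of 7 genes in the files, of which 3 were tested. The members and lists were chosen with earlier results of these data known.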

Additional observations from a re-analysis of the deposited data

How the results depend on the processing

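Of 389 recomputed counts, levels and shares, 376 stayed within 1.5 times the reported count or within the reported error. Of 466 recomputed log2 changes of single members, 423 kept direction and side of the threshold. Both totals include the setting with only transcripts named for a member alone. That setting repeats the reported values, so its part of these totals was fixed in advance. Levels of 0 CPM also stay at 0 under any library total. Shares were recomputed only without transcripts below 1 count, which could move them little. The 376 is therefore not a measure of how stable the results are. The number of members that passed in OVMANA fell from 2 to 1 with DESeq2, with no expression filter and with PromethION libraries alone; in COV504 it fell from 7 to 3 with DESeq2. Leaving out each IGROV-1 library gave 1 to 3 members in OVMANA, 5 to 7 in OVKATE, 3 to 4 in OVTOKO, 3 to 6 in SK-OV-3, 5 to 7 in COV362, 6 to 7 in COV504 0 for the instruments and 6 to 16 of 48 neighbouring pairs of lines; usage gave 0 throughout. DESeq2 passed 1 neighbouring pair against 9 (MEIS1, SK-OV-3 above OVMANA). Same-numbered IGROV-1 libraries deviated together (r = 0.37 over 10041 genes), but the labels do not say that numbers pair the samples; with a replicate block 1 of 4 members passed between instruments (ARID1A, log2 change -0.40, adjusted p = 0.0014) and 1983 genes in all against 83. Without mitochondrial ribosomal RNA in the total, PAX8 in the IGROV-1 MinION pair was 168 CPM and ARID1A in the PromethION pair 111 CPM.

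Of the log2 changes below that took both signs, PAX8 passed at -0.58 in OVKATE and COV362, without PromethION replicate 2, and the others passed in no setting. Leaving out each IGROV-1 library put PAX8 between -0.58 and 0.062 in OVKATE and between -0.58 and 0.061 in COV362, with the positive values without PromethION replicate 1. Between instruments it put PAX8 between -0.38 and 0.27, SOX17 between -0.097 and 0.36 and MECOM between -0.29 and 0.22. Between instruments MECOM was also at 0.0023 with no filter and 0.024 with library totals. With library totals PAX8 was at 0.0089 and ARID1A at 0.13 in OVKATE; that setting shifts OVKATE by 0.30 and SK-OV-3 by 0.23. The cause of these changes was not tested. Counts of 20 or fewer (SOX17 in OVTOKO, ESR1 in COV362 and COV504, EMX2 in COV504 and SK-OV-3, WT1 in COV362) limit precision.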
